A study of Mus musculus with 208 samples.

Results

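Tmprss6, Plk5, Krt9, Slc4a11, Odf4, Ddit4l, Mas1 and Dgat2l6 are 8 of the 39179 genes counted in striatal RNA of Huntington disease knock-in mice. They were chosen by their counts because they were already lower at 2 months in the line with the longest CAG repeat, Q175, than in the line with a short repeat, Q20. Their levels in those 16 libraries of 2 months are therefore given as a description, without a test. Libraries of the same lines at 6 and 10 months, and of the other lines at 2 months, did not enter the choice and were tested. In the files the genes carry the Ensembl identifiers ENSMUSG00000016942 (Tmprss6), ENSMUSG00000035486 (Plk5), ENSMUSG00000051617 (Krt9), ENSMUSG00000074796 (Slc4a11), ENSMUSG00000032921 (Odf4), ENSMUSG00000046818 (Ddit4l), ENSMUSG00000068037 (Mas1) and ENSMUSG00000067597 (Dgat2l6).

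The mice were C57BL/6, heterozygous for a knock-in Htt allele (Het), and the 6 lines Q20, Q80, Q92, Q111, Q140 and Q175 are named by the length of its CAG repeat. Each line was sampled at 2, 6 and 10 months, and every group held 8 libraries of polyadenylated RNA from whole striatum of females and males. Wild types without the knock-in allele were housed with Q20 at 2 and 10 months, and at 6 months there were 6 wild-type groups, 1 housed with each line, which gives 26 groups and 208 libraries. Animals of all 6 knock-in lines, Q20 included, carried 1 altered and 1 normal Htt allele in all their cells. The labels number the samples of a group but do not describe how animals were drawn, so p-values measure the spread between these samples.

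Huntington disease is caused by an expanded CAG repeat in the huntingtin gene, and longer repeats bring earlier disease. The spiny projection neurons of the striatum, which make up most of its neurons, are the cells hit first, and loss of transcripts that mark these neurons is a known early feature in mouse models. Most of the 8 genes are best known from other tissues. Tmprss6 encodes matriptase-2, a membrane serine protease that restrains hepcidin in the liver. Slc4a11 encodes a membrane transporter needed by the corneal endothelium, and Mas1 a G protein-coupled receptor of the renin-angiotensin system. Ddit4l, also called Redd2, inhibits mTORC1 signalling, and Plk5 is an atypical Polo-like kinase expressed in brain. Krt9 is a type I keratin of palm and sole skin, Odf4 a protein of the sperm tail's outer dense fibres, and Dgat2l6 an acyltransferase of the DGAT2 family.

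The depth was 29.1 M to 49.6 M counts (M, 1000000) in each library, and levels are given as CPM, counts per 1000000 of the scaled library, unless FPKM is named. At 2 months 7 libraries had 17.2% to 24.1% of their counts on mitochondrial genes and 5 of these correlated least with the rest of that age (median r 0.901 to 0.949). They were 2 of Q20, 1 of Q80 and 2 of Q92, and the other 2 of the 7 were 1 of wild type and 1 of Q111. In Q80 at 2 months 1 library labelled male did not match its sex label. A further 3 libraries of 6 months carried counts of neighbouring tissues (Q20 with pituitary hormones, Q80 with choroid plexus and Q92 with cortical genes). Wild types of 6 months held such counts too, with a mean of 128.3 FPKM of the choroid plexus gene Ttr against 20.5 in Q20. The pituitary gene Prl had means of 1.808 FPKM in these wild types and 1.674 in Q20. Fits without the 3 libraries kept all wild types. All 8 genes passed the filter on low counts at every age, and none shares its position with another gene of the GENCODE M21 annotation except Mas1, which overlaps Airn on the opposite strand and the miRNA gene Gm24085. Whether counting used strand is not given in the sources used here, so the Mas1 values could include reads of Airn.

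Per unit length, in mean FPKM of Q20 at 6 months, Plk5 (14.95 ± 1.51, SD, n = 8), Krt9 (13.9 ± 1.45) and Ddit4l (10.9 ± 1.47) were the most abundant of the 8. Mas1 (5.001 ± 0.872) and Slc4a11 (4.21 ± 0.506) came next, and Odf4 (1.89 ± 0.336), Tmprss6 (0.987 ± 0.213) and Dgat2l6 (0.527 ± 0.0685) were scarce. The scarce genes rest on few counts. In Q175 at 10 months a library held 11 to 26 counts of Tmprss6, 15 to 23 of Odf4 and 17 to 33 of Dgat2l6, against 336 to 583 of Krt9.

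RefSeq promoter windows of 300 bases, 250 before and 50 after the start on GRCm38.p6, were found for 6 of the 8 genes, and the 4 that held any of 9 searched motifs are printed since these genes fell together. Tmprss6 and Slc4a11 are named only. Capitals mark the matches, 5′ to 3′ on the gene's strand, searched on both strands, so that CCGCCC stands for GGGCGG on the other strand.
Plk5, chr10:80356209-80356508, plus strand: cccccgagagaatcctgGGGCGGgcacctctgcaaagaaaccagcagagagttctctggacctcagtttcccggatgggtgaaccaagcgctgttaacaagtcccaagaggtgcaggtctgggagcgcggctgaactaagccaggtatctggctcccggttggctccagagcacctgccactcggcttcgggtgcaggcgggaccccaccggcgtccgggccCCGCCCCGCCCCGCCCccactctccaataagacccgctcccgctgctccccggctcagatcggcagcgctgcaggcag
Ddit4l, chr3:137623422-137623721, plus strand: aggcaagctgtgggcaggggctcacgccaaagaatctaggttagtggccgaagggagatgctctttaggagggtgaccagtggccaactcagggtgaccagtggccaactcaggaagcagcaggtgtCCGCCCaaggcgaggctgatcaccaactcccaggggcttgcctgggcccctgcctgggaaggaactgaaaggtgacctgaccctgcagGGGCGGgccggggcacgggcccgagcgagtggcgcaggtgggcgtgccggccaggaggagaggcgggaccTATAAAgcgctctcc
Krt9, chr11:100193197-100193496, minus strand: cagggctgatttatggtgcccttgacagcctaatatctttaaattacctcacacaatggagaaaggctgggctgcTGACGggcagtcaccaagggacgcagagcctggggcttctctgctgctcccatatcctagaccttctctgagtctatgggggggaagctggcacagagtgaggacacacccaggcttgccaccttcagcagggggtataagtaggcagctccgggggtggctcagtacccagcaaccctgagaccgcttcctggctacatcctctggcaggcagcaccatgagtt
Dgat2l6, chrX:100524588-100524887, plus strand: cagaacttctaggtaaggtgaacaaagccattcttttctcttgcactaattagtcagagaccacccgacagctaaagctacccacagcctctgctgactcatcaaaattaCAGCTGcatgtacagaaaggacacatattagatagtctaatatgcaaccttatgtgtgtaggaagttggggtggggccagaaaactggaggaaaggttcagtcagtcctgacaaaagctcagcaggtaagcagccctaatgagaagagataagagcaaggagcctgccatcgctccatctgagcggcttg
The Sp motif GGGCGG occurred 4 times in Plk5, where 3 matches share their end bases, and 2 times in Ddit4l. It is found in 35.7% of all 32851 windows. Ddit4l also held the letters TATAAA, from 35 bases downstream of the start, whereas a TATA box lies upstream of it, and 13.6% of windows hold them. In Krt9 the motif TGACG, the first part of the cAMP response element, occurred 1 time (20.8% of windows), and in Dgat2l6 the E box CAGCTG occurred 1 time (16.3%). The whole element TGACGTCA, which contains TGACG, and the motifs GCGTGGGCG and GCGGGGGCG of Egr, the Mef2 motif and the E box CACGTG had no match in the 6 windows, and the windows of Odf4 and Mas1 held none of the 9. The G and C content was 66.7% in Plk5, 65.7% in Ddit4l, 57.0% in Krt9 and 46.7% in Dgat2l6, against a median of 52.7% over all windows. No motif was common to the 6 windows.

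At 2 months, the values that chose the genes ran from 40.1% of the Q20 mean for Tmprss6 in Q175 to 67.3% for Mas1. On the log2 scale of the fitted model, Q175 minus Q20 was -1.30 for Tmprss6, -0.75 for Plk5 and for Dgat2l6, -0.69 for Krt9, -0.61 for Slc4a11, -0.60 for Odf4, -0.58 for Ddit4l and -0.57 for Mas1, the member just inside the choice. Pipox, at -0.50, lay just outside. In this contrast 0.188% of the 17006 genes tested were called lower, and for 5 of the 8 genes every Q175 library lay below every Q20 library (0.0823% of all genes), which is a description of the choice. Gpx6 (-0.95), Wnt4 (-0.84), Gm15721 (-0.74) and Gm12500 (-0.68) differed by more than some of the 8 and are not among them. They are named here after their values were seen. Of the 8 Q20 libraries behind these values 2 had many mitochondrial counts, and without them the Q175 mean was 45.3% (Tmprss6) to 76% (Ddit4l) of that of Q20.

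**Figure D1:**
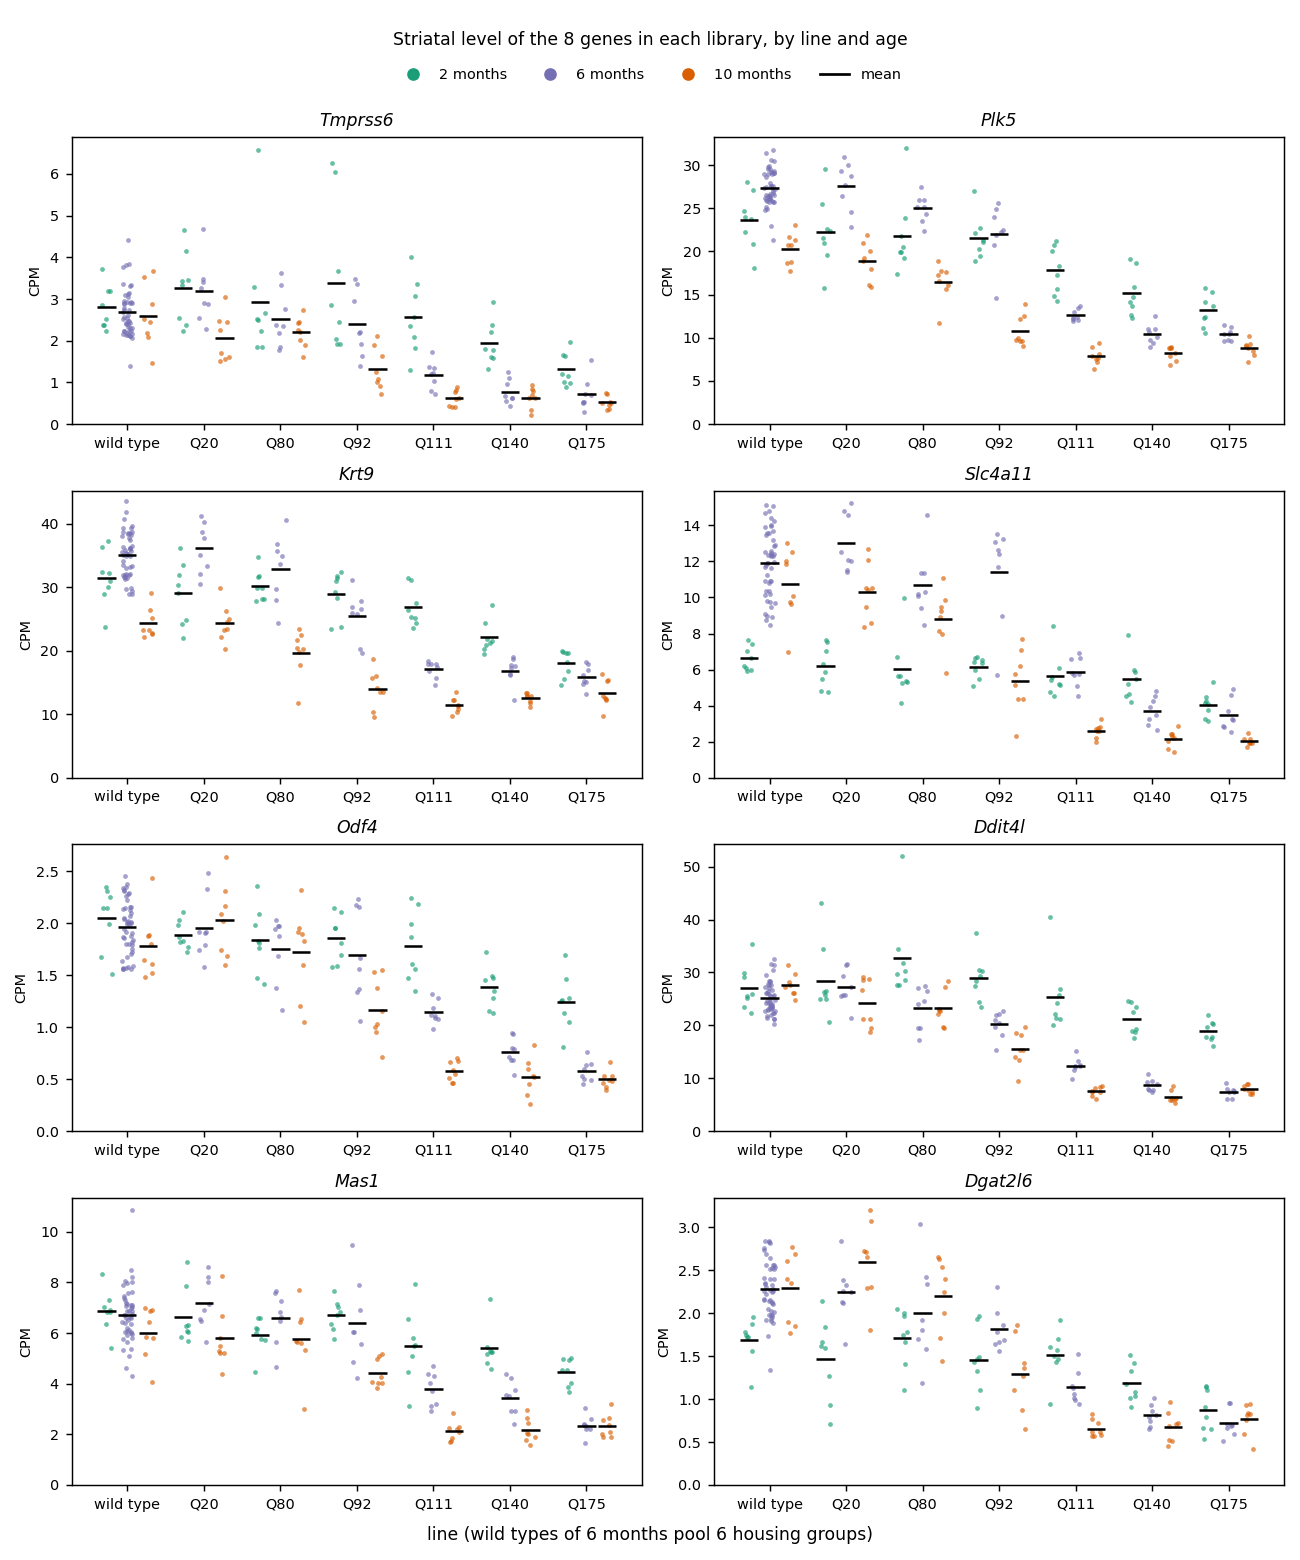
Level of each of the 8 genes in CPM (vertical axis, linear from 0) by line (horizontal axis), with 1 point per library and a black bar at the mean, in green for 2, purple for 6 and orange for 10 months. The Q111, Q140 and Q175 libraries of 6 and 10 months lie below those of Q20 of the same age for every gene.

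Tmprss6, the membrane protease, had the largest difference of the 8 at 6 months. Its level in Q20 at 6 months ranged from 2.29 CPM over a median of 3.09 to 4.68, and in Q175 from 0.298 over 0.608 to 1.54. At 10 months it ranged from 1.51 over 1.98 to 3.05 in Q20 and from 0.344 over 0.511 to 0.753 in Q175. The highest Q175 library stayed under the lowest Q20 library at both ages. The mean in Q175 was 22.7% of that in Q20 at 6 months, a log2 difference of -2.16 ± 0.17 (SE) with an adjusted p of 4.7e-19 by edgeR's quasi-likelihood test, and 25.2% at 10 months (-2.02 ± 0.19, adjusted p = 1.25e-12).

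Slc4a11, the membrane transporter, had a different course with age in wild types and in Q175. Its mean was 6.62 ± 0.680 CPM (SD, n = 8) in wild types of 2 months, between 11.4 and 13.1 CPM in the 6 wild-type groups of 6 months and 10.7 ± 2.00 at 10 months. In Q175 the means were 4.06 ± 0.705, 3.48 ± 0.858 and 2.03 ± 0.236 CPM at 2, 6 and 10 months. The level at 6 months was thus higher than at 2 months in wild types and not in Q175, which was not tested. Plk5 means moved in the same directions, from 23.6 to between 26.9 and 28.1 CPM in wild types and from 13.2 to 10.4 in Q175. With Q20 in place of wild types, Krt9 did so too, from 29.04 to 36.16 CPM in Q20 and from 18.04 to 15.96 in Q175. Tmprss6 did not, with 3.275 and 3.183 CPM in Q20. Since each age has its own animals and libraries, age and library set cannot be told apart. At 6 months Slc4a11 ranged from 11.4 over a median of 12.3 to 15.2 CPM in Q20 and from 2.53 over 3.24 to 4.90 in Q175, with no overlap. At 10 months the ranges were 8.37 over 10.4 to 12.7 and 1.69 over 1.97 to 2.48 CPM. The difference at 10 months, -2.33 ± 0.15 on the log2 scale (adjusted p = 1.11e-17), was the largest of the 8 at that age, after -1.91 ± 0.13 (4.33e-22) at 6 months.

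Mas1, the receptor, ranged from 5.65 over a median of 7.04 to 8.60 CPM in Q20 of 6 months and from 1.66 over 2.35 to 3.03 in Q175. At 10 months the values ran from 4.40 over 5.40 to 8.27 in Q20 and from 1.87 over 2.22 to 3.21 in Q175. The groups were apart at both ages. The log2 difference was -1.62 ± 0.13 at 6 months (adjusted p = 3.15e-19) and -1.29 ± 0.14 at 10 months (1.02e-10).

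Ddit4l, the mTORC1 inhibitor, ranged from 21.4 over a median of 26.5 to 31.5 CPM in Q20 of 6 months and from 6.15 over 7.46 to 9.16 in Q175. At 10 months it ranged from 18.8 over 24 to 29.2 in Q20 and from 7.01 over 7.97 to 8.95 in Q175. Each Q175 library held less than any Q20 library. The mean in Q175 was 27.3% of Q20 at 6 months (log2 -1.87 ± 0.08, adjusted p = 3.76e-33) and 33.0% at 10 months (-1.60 ± 0.11, 1.32e-17). Plk5, the Polo-like kinase, ranged from 22.8 over 28.2 to 31.0 CPM in Q20 of 6 months and from 9.59 over 10.46 to 11.5 in Q175. Its ranges at 10 months were 15.9 over 19.0 to 21.9 and 7.16 over 8.94 to 10.3 CPM. These groups did not overlap either, and the log2 differences were -1.41 ± 0.07 (8.86e-33) and -1.10 ± 0.09 (2.99e-15).

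Of the structural proteins, Krt9 fell least on the log2 scale at both ages. It ranged from 30.5 over a median of 36.5 to 41.3 CPM in Q20 of 6 months and from 13.3 over 15.7 to 18.2 in Q175, and at 10 months from 20.3 over 24.02 to 29.9 and from 9.73 over 12.7 to 16.4. No library of one line reached the range of the other. The difference was -1.18 ± 0.08 at 6 months (adjusted p = 2.44e-22) and -0.85 ± 0.10 at 10 months (5.61e-09). Odf4, the sperm tail protein, ranged from 1.58 over 1.91 to 2.48 CPM in Q20 of 6 months and from 0.456 over 0.566 to 0.759 in Q175. At 10 months its ranges were 1.60 over 2.06 to 2.64 and 0.393 over 0.491 to 0.666 CPM. Both pairs of ranges were apart, with differences of -1.76 ± 0.12 (9.18e-22) and -2.00 ± 0.17 (2.71e-14).

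Dgat2l6, the acyltransferase, ranged from 1.64 over a median of 2.25 to 2.84 CPM in Q20 of 6 months and from 0.510 over 0.697 to 0.959 in Q175. At 10 months the values were 1.802 over 2.68 to 3.20 in Q20 and 0.417 over 0.817 to 0.937 in Q175. Again no Q175 library reached the lowest of Q20, and the log2 difference was -1.64 ± 0.13 (adjusted p = 2.55e-19) and -1.76 ± 0.16 (1.53e-12). In all, 8 of 8 genes fell in Q175 against Q20 at 6 months, where 18.2% of 17642 genes were called lower, and 8 of 8 at 10 months, where 12.1% of 17170 were. All 8 were also without overlap at 6 months (6.02% of genes) and at 10 months (3.5%). The median difference of the 8 was -1.70 at 6 months and -1.68 at 10 months, and that of all genes was 0.01 at both ages. Without the 3 libraries of 6 months named above for counts of neighbouring tissues 8 of 8 fell as well, from -1.17 for Krt9 to -2.10 for Tmprss6.

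At 6 months all 8 genes were lower than in Q20 from Q111 upward, and 3 of 8 were in Q92. Against Q20, 8 of 8 genes fell in Q140 (-1.06 for Mas1 to -2.04 for Tmprss6, where 14.1% of genes were called lower) and in Q111 (-0.77 for Odf4 to -1.44 for Tmprss6, 7.45% of genes). For all 8 genes every Q140 and every Q111 library lay below every Q20 library (3.39% and 2.24% of genes). In Q92, 3 of 8 fell (2.99% of genes): Krt9 at -0.50 ± 0.08 (adjusted p = 6.37e-05), Ddit4l at -0.42 ± 0.08 (0.000523) and Plk5 at -0.32 ± 0.06 (0.000982). With only Q92 and Q20 in the fit Plk5 lost the call (0.116). The other 5 genes had differences of -0.17 to -0.42 in Q92. In Q80, 0 of 8 were called by edgeR or DESeq2 (0.085% of genes by edgeR), 4 had an unadjusted p under 0.05, and the differences ran from -0.12 to -0.33. The comparisons with Q20 share its 8 libraries.

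**Figure D2:**
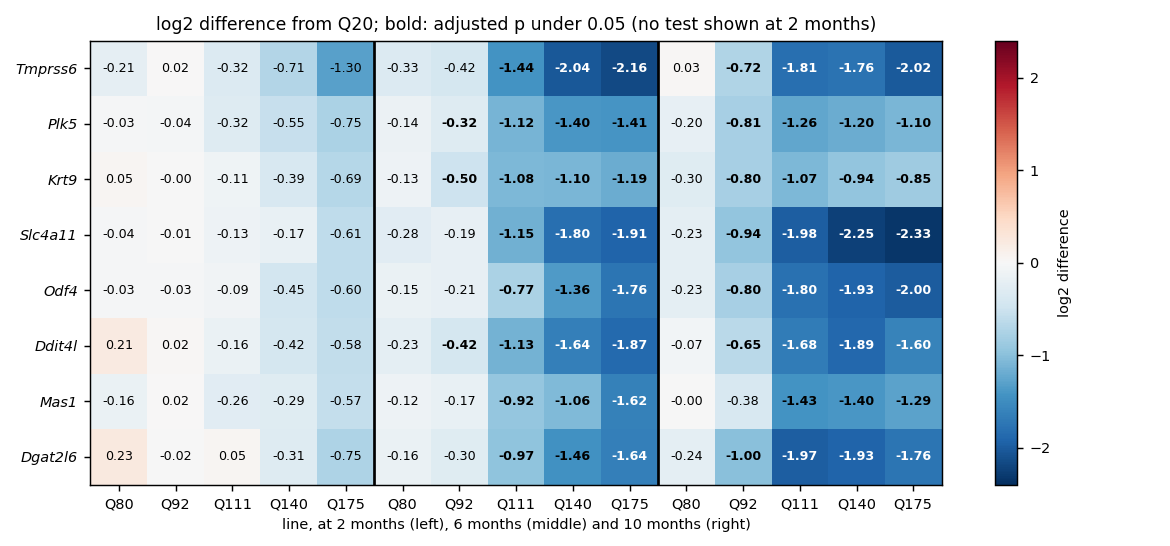
log2 difference of each line from Q20 (colour and printed value) for the 8 genes (vertical axis) in 5 lines at 2, 6 and 10 months (columns, left to right), with bold print for an adjusted p under 0.05 at 6 and 10 months. No test is shown at 2 months, whose Q175 and Q20 libraries chose the genes, and all values of Q111, Q140 and Q175 at 6 and 10 months are bold, as are 3 of 8 in Q92 at 6 months and 7 of 8 at 10 months.

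The same picture came from wild-type cage mates at 6 months, which are separate animals from Q20. Against its own cage mates 8 of 8 genes fell in Q175 (16.1% of genes), Q140 (11.7%) and Q111 (4.66%), with Tmprss6 at -1.95 ± 0.17, -1.78 ± 0.17 and -1.06 ± 0.17. In Q92, 2 of 8 fell (0.034% of genes), Krt9 at -0.41 ± 0.08 (adjusted p = 0.00626) and Plk5 at -0.30 ± 0.06 (0.0204). Ddit4l, called in Q92 against Q20, had -0.30 ± 0.08 here with an adjusted p of 0.276. In Q80 and in Q20 0 of 8 were called by edgeR or DESeq2 (0.0283% and 0.00567% of genes by edgeR), with 2 genes each at an unadjusted p under 0.05. Q20 lay above its cage mates by 0.32 ± 0.15 for Tmprss6, the largest difference of the 8, with an adjusted p of 0.844.

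**Figure D3:**
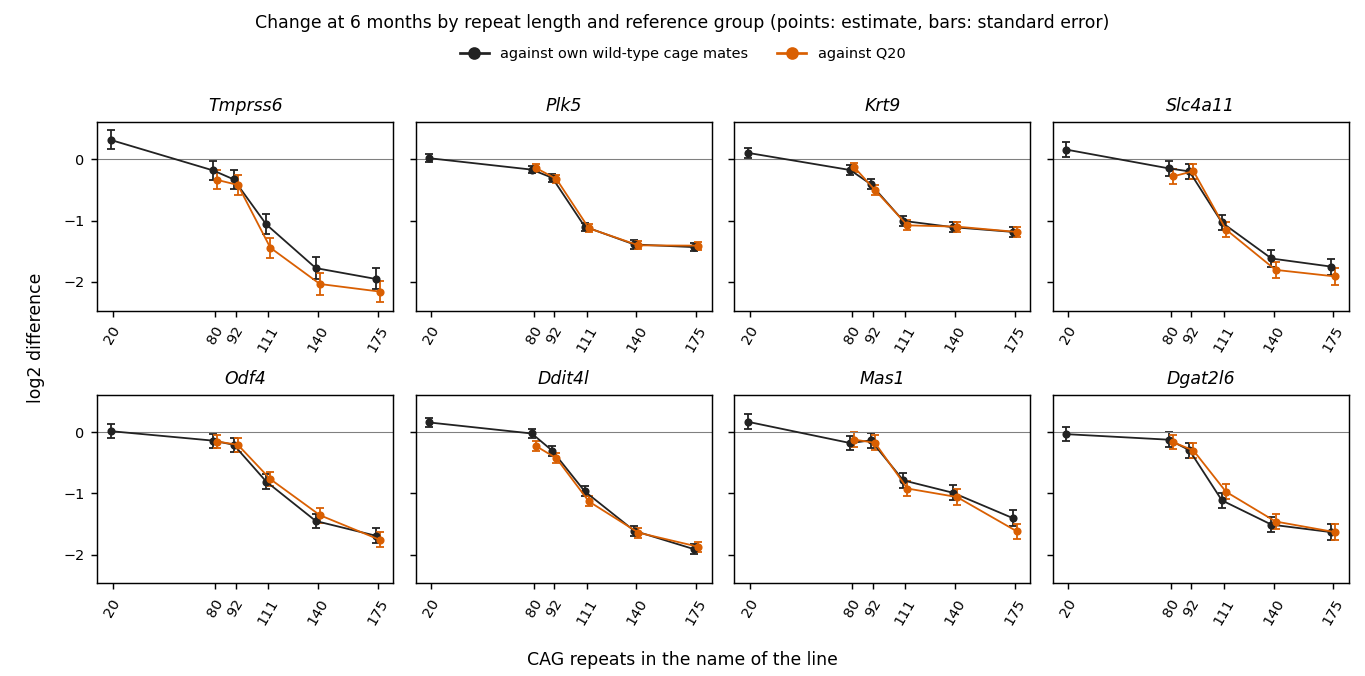
log2 difference at 6 months (vertical axis, points with standard error bars) against the CAG repeat length in the name of the line (horizontal axis) for the 8 genes, from wild-type cage mates in black and from Q20 in orange. Both references give the drop between 92 and 111 repeats, and Tmprss6 is lower by more against Q20 than against cage mates.

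Neighbouring lines were compared next. At 6 months all 8 genes were lower in Q111 than in Q92 (3.42% of genes), from -0.56 for Odf4 to -1.03 for Tmprss6. Between Q111 and Q140, 5 of 8 fell further (0.884% of genes): Slc4a11 at -0.66 ± 0.14, Odf4 at -0.59 ± 0.13, Ddit4l at -0.51 ± 0.09, Dgat2l6 at -0.49 ± 0.13 and Plk5 at -0.28 ± 0.07. Dgat2l6 lost the call with no filter on low counts (adjusted p = 0.061). Tmprss6 had -0.59 ± 0.18 with an adjusted p of 0.0703 and was called by DESeq2. Krt9, at -0.02 ± 0.08, and Mas1, at -0.14 ± 0.13, were not called. Mas1 was instead the 1 gene of 8 lower in Q175 than in Q140 (-0.56 ± 0.13, adjusted p = 0.0287, 0.102% of genes). Between Q80 and Q92 the 1 gene called was Krt9 (-0.37 ± 0.08, adjusted p = 0.00472, 1.24% of genes). Per 10 repeats, the linear trend over the 6 lines was from -0.09 ± 0.01 for Krt9 to -0.16 ± 0.01 for Tmprss6, called for all 8 (19.6% of genes). The libraries of a line share its repeat length, so the SE and the calls rest on the spread between libraries. Repeat length and other differences between lines cannot be told apart by this trend.

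At 10 months Q92 was set against Q20 in the same way. In Q92, 7 of 8 genes fell against Q20, where 0.78% of 17170 genes were called lower. They were Dgat2l6 (-1.005 ± 0.16), Slc4a11 (-0.94 ± 0.14), Plk5 (-0.81 ± 0.08), Odf4 (-0.80 ± 0.15), Krt9 (-0.80 ± 0.10), Tmprss6 (-0.72 ± 0.17) and Ddit4l (-0.65 ± 0.10), with adjusted p between 6.09e-09 for Plk5 and 0.0174 for Tmprss6. Mas1, at -0.38 ± 0.13, had an adjusted p of 0.162. For 4 of the 8 no Q92 library reached the Q20 range (0.116% of genes). Plk5 for example ranged from 9.10 over a median of 9.85 to 13.9 CPM in Q92 and from 15.9 over 19.0 to 21.9 in Q20. With only Q92 and Q20 in the fit, Tmprss6 and Ddit4l of the 7 lost the call (adjusted p = 0.0794 and 0.0716). Within Q92 of this age the highest mitochondrial shares of counts were 15.85%, 15.9%, 15.71% and 15.02%. Within Q20 they were 16.33% and 14.65%. Single libraries of wild type (16.13%), Q111 (15.88%) and Q140 (15.21%) had such shares too. The part of this share in the Q92 differences was not tested.

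In Q80 of 10 months 0 of 8 genes were called against Q20 by edgeR or DESeq2 (0.0291% of genes by edgeR), with 2 at an unadjusted p under 0.05 and differences of -0.30 to 0.03. Q92 was lower than Q80 for 7 of 8 (0.751% of genes), all but Mas1 (-0.38 ± 0.13, adjusted p = 0.135). The call of Odf4 among them (adjusted p = 0.0487) was lost with no filter on low counts (0.0807) and with the replicate number as a block (0.0622). Q111 was lower than Q92 for 7 of 8 (2.63% of genes), all but Krt9 (-0.28 ± 0.11, 0.141). The estimate was larger between Q92 and Q111 than between Q80 and Q92 for 6 of the 8, as for Mas1 (-1.05 against -0.38). It was smaller for Plk5 (-0.45 against -0.60) and Krt9 (-0.28 against -0.50). The step from Q92 to Q111 spans more repeats than that from Q80 to Q92. These estimates are not per repeat, and their difference was not tested. From Q111 upward no difference between neighbouring lines was called. Against Q20, 8 of 8 were lower in Q111 (6.9% of genes) and Q140 (11.6%), all without overlap (1.84% and 3.34% of genes). Between Q111 and Q140, and between Q140 and Q175, 0 of 8 were called by edgeR or DESeq2 (0.0175% and 0.0116% of genes lower by edgeR), with 0 and 1 at an unadjusted p under 0.05. Krt9 had means of 11.5 ± 1.21, 12.6 ± 0.791 and 13.4 ± 2.19 CPM in Q111, Q140 and Q175, against 24.4 ± 2.88 in Q20. The trend over the 6 lines was called for all 8 (16.9% of genes), from -0.06 ± 0.01 per 10 repeats for Krt9 to -0.18 ± 0.01 for Slc4a11. Here too the libraries of a line share its repeat length, with the same limit as at 6 months. Against wild type, 8 of 8 were lower in Q175 (12.1% of genes), Q140 (11%) and Q111 (8.54%) and 7 of 8 in Q92 (1.23%), again all but Mas1 (-0.44 ± 0.13, adjusted p = 0.0677). In Q80 0 of 8 were called against wild type by edgeR (0.0175%), with 4 at an unadjusted p under 0.05. Q20 did not differ from wild type in a called way for any of the 8 at 10 months (0% of genes lower), with 0 at an unadjusted p under 0.05 in edgeR and 0 called by DESeq2.

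Whether a line's difference from Q20 itself changed between 6 and 10 months was tested in a fit of all libraries. For Q175 0 of 8 were called (0.0112% of 17863 genes in either direction), with 3 at an unadjusted p under 0.05, and for Q140 0 of 8 (0.028%), with 3. In Q111, 2 of 8 had fallen further (0.0336% of genes): Odf4 at -1.03 ± 0.18 (adjusted p = 0.00134) and Dgat2l6 at -0.999 ± 0.21 (0.0172). Slc4a11 had -0.83 ± 0.19 with an adjusted p of 0.0617. In Q92, 0 of 8 were called (0.151% of genes), although 5 had an unadjusted p under 0.05 and all 8 estimates were negative, from -0.21 for Mas1 to -0.75 for Slc4a11 (adjusted p = 0.0506). With the replicate number as a block 3 of 8 were called in Q92, Slc4a11 (adjusted p = 0.0337), Dgat2l6 (0.0389) and Plk5 (0.0453). In Q80, 0 of 8 were called (0.0056%), with 0 at an unadjusted p under 0.05. No other tool was run for these tests, and those of lines other than Q175 were chosen after the data had been seen. The 10-month libraries of Q20 were lower than those of 6 months for some of the genes, such as Krt9 (24.4 against 36.2 CPM), and these tests take that difference out.

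At 2 months the lines other than Q175 were set against wild type, whose libraries did not enter the choice. In Q140, 3 of 8 genes fell (0.0706% of 17006 genes): Plk5 at -0.64 ± 0.11 (adjusted p = 0.00579), Odf4 at -0.56 ± 0.12 (0.0218) and Krt9 at -0.51 ± 0.09 (0.00579). Plk5 ranged from 12.3 over a median of 14.4 to 19.1 CPM in Q140 and from 18.1 over 23.9 to 28.1 in wild type. The ranges of Odf4 were 1.14 over 1.401 to 1.72 and 1.52 over 2.15 to 2.35 CPM, and those of Krt9 19.5 over 21.4 to 27.3 and 23.8 over 31.7 to 37.4. Most Q140 libraries were lower, and the groups overlapped for each of the 3 genes. The other 5 genes had differences of -0.27 for Slc4a11 to -0.53 for Tmprss6, and all 8 had an unadjusted p under 0.05. The 3 calls were lost without replicate 1 or without replicate 3 of all groups and with scores of cortical, thalamic and choroid plexus genes in the fit (0 of 8 each), Odf4 and Krt9 also without replicate 4 (1 of 8 left). Odf4 lost its call further without replicate 2, with the L code of the library names as a covariate, with no filter on low counts and with only the 2 groups in the fit (2 of 8 left each). Without the 7 libraries with many mitochondrial counts 5 of 8 were called.

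In Q111 of 2 months 0 of 8 were called by edgeR or DESeq2 (0.0235% of genes by edgeR), with 3 at an unadjusted p under 0.05 and differences of -0.10 to -0.41, and 3 of 8 were called without the 7 libraries. These were Plk5, Krt9 and Mas1. In Q92, 0 of 8 were called by edgeR or DESeq2 (0% of genes by edgeR), with 0 at an unadjusted p under 0.05, and in Q80 0 of 8 (0.00588%), with 1.

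Spiny projection neuron genes were also lower in Q175. Of the markers shared by these neurons 14 of 14 were lower at both ages, where 18.2% and 12.1% of all genes were. Their median was -0.72 at 6 months and -0.57 at 10 months, against -1.70 and -1.68 for the 8 genes. The 8 were chosen for a fall in Q175, so their larger median is a description. The summed level of the 14 markers at 6 months was 14300 to 16860 CPM in Q20 and 8402 to 9650 in Q175. At 10 months it was 9647 to 12950 and 6137 to 7952, and none of the 14 was under 1 CPM. Of the markers of the D2 type, which carries the dopamine receptor D2, 4 of 5 tested were lower at both ages (medians -0.75 and -0.69), and Sp9 was not called (0.05 ± 0.07 at 6 months). Those of the D1 type were mixed, with 3 lower and 2 higher of 6 at 6 months (median -0.17) and 3 lower and 1 higher at 10 months (-0.25). At 6 months Drd1, the D1 receptor itself, was at -0.85 ± 0.08, Chrm4 at -0.89 ± 0.07 and Pdyn at -0.34 ± 0.08. Tac1 was at -0.0045 ± 0.082, Isl1 at 0.23 ± 0.06 and Eya1 at 0.32 ± 0.06. The part of these cells in the fall of the 8 genes was not tested, and in bulk tissue fewer cells of a type and less RNA per cell cannot be told apart.

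Among other cell types, oligodendrocyte markers were lower in 2 of 5 at both ages and higher in 0 of 5 at 6 and 1 of 5 at 10 months (sums of 8558 to 10690 CPM in Q20 and 7546 to 9289 in Q175 at 6 months). Endothelial markers were lower in 2 of 4 and interneuron markers in 2 of 5 at both ages, and none was higher. Astrocyte markers had 1 lower and 1 higher of 5 at 6 and 2 and 2 at 10 months, and microglial markers 2 and 1 lower of 5. Of the pituitary markers 2 of 3 were lower at 6 months, where 1 Q20 library carried pituitary hormones (sums of 0.537 to 94.8 CPM in Q20 and 0.915 to 3.79 in Q175). Cortical markers were higher in 1 of 7 and thalamic markers in 0 of 4 at 6 months, with sums of 31.9 to 171 against 56.0 to 134 and of 24.8 to 58.2 against 31.8 to 251 CPM. No marker of oligodendrocyte precursors, choroid plexus, ependyma or meninges was called at either age. With scores of cortical, thalamic and choroid plexus genes in the fit, all 8 genes were still lower in Q175 at 6 and 10 months, as they were in each fit that left out a replicate.

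Within wild types alone, which carry no knock-in allele, the genes were compared with markers of spiny projection neurons, cortex and choroid plexus. Over the 64 wild-type libraries, centred on their groups, Krt9 followed the mean score of the 14 spiny neuron markers most closely (Pearson r = 0.70, Spearman rho = 0.69). Its permutation p of 1e-05 is the smallest that 100000 resamples can give, or 0.00024 when adjusted over the 24 relations computed, and r without the 2 libraries of most extreme score was 0.65. Mas1 (r = 0.51, rho = 0.51, permutation p = 0.00024 and 0.00015, adjusted 0.00144 and 0.00156), Ddit4l (r = 0.50, rho = 0.46, 6e-05 and 0.00026, 0.00072 and 0.00156), Plk5 (r = 0.48, rho = 0.48, 0.00019 and 0.00025, 0.00144 and 0.00156) and Slc4a11 (r = 0.43, rho = 0.40, 0.00113 and 0.00204, 0.00542 and 0.00979) passed as well, with r of 0.45, 0.41, 0.36 and 0.36 without those 2 libraries. Tmprss6 passed by Pearson's r (0.37, permutation p = 0.00632, adjusted 0.0217) and missed by rho (0.32, 0.0174, adjusted 0.0597), with r = 0.28 without those 2 libraries. Odf4 (r = 0.30, rho = 0.27, permutation p = 0.0207 and 0.0399, adjusted 0.0622 and 0.12) and Dgat2l6 (r = 0.26, rho = 0.25, 0.0591 and 0.0655, adjusted 0.158 and 0.157) did not pass. With the cortical score Krt9 alone passed, in the opposite direction (r = -0.40, rho = -0.38, permutation p = 0.00275 and 0.00315, adjusted 0.011 and 0.0126, r = -0.38 without those 2), and with the choroid plexus score 0 of 8 did. Genes measured in the same library share its depth and its dissection.

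**Figure D4:**
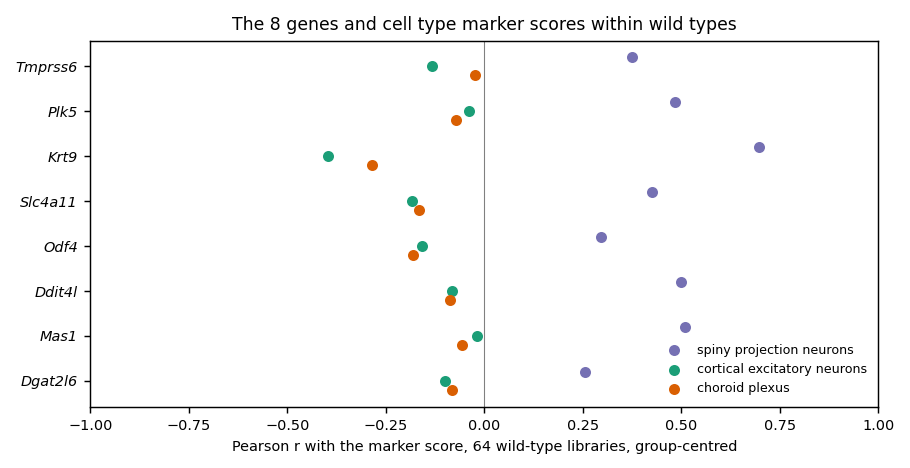
Pearson r (horizontal axis) of each of the 8 genes (vertical axis) with the score of spiny projection neuron (purple), cortical (green) and choroid plexus (orange) markers over 64 wild-type libraries centred on their groups. The purple points run from 0.26 for Dgat2l6 to 0.70 for Krt9, to the right of the other points for every gene.

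Among the 6 wild-type groups of 6 months 0 of 8 genes differed by edgeR (1.34% of genes in either direction), with 1 at an unadjusted p under 0.05. The largest gap between the highest and lowest mean was 0.29 on the log2 scale, for Tmprss6. The Q175 difference was not called different between males and females for any of the 8 at 6 or 10 months (0% of genes at both ages), with 1 and 0 at an unadjusted p under 0.05. No other tool was run for these tests. Tmprss6, for example, differed by 0.49 ± 0.34 at 6 months, an interval too wide to show equal effects.

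The called relatives of these genes changed by less at 6 months than any of the 8. As the 8 were chosen for a fall in Q175 at 2 months, this comparison is a description. Of 8 tested transmembrane serine proteases besides Tmprss6, 3 fell and 2 rose in Q175 at 6 months, with Tmprss5 at 0.68 ± 0.12, Tmprss4 at -0.63 ± 0.20 and Hpn, which encodes hepsin, at -0.61 ± 0.15. In the hepcidin and iron list 7 fell and 2 rose of 16, led by the ligands Bmp2 (-0.39 ± 0.08) and Bmp6 (-0.37 ± 0.10) and by Tfr2 (-0.30 ± 0.10), a transferrin receptor. Both Hamp genes, which encode hepcidin, were too low to be tested. Of the other 4 Polo-like kinases, Plk1 (-0.65 ± 0.10) and Plk2 (-0.44 ± 0.08) fell and Plk4 rose (0.29 ± 0.06). Of 8 tested bicarbonate transporters 1 fell and 1 rose, Slc4a4 at -0.35 ± 0.04 and Slc4a7 at 0.15 ± 0.04. Over all genes 3203 fell and 3179 rose of 17642.

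Of 10 tested keratins 2 fell and 2 rose, among them Krt10 at -0.44 ± 0.07, Krt1 at 0.59 ± 0.10 and Krt20 at 0.39 ± 0.11. The outer dense fibre genes Odf3 (-0.80 ± 0.25) and Odf2 (-0.13 ± 0.03) fell, 2 of 5, and none rose. Among 16 regulators of mTORC1 besides Ddit4l 4 fell and 4 rose, with Deptor, an inhibitor of the kinase, at -0.38 ± 0.05, Sesn3 at -0.25 ± 0.05 and Sesn2 at 0.21 ± 0.07. In the renin-angiotensin system 2 fell and 3 rose of 11 besides Mas1: Ace, the angiotensin-converting enzyme, at -0.83 ± 0.20, Agtr1a, an angiotensin receptor, at -0.47 ± 0.14, and Lnpep at 0.33 ± 0.10. Of 10 genes of triacylglycerol synthesis besides Dgat2l6 3 fell and 2 rose, with Dgat2 at -0.30 ± 0.06, Agpat1 at -0.20 ± 0.04 and Gpam at -0.19 ± 0.04. At 10 months the lists had 1 to 3 genes lower and 0 to 3 higher, and Ace (-0.81 ± 0.08) and Tmprss5 (0.80 ± 0.11) had the largest changes of those named.

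Over the means of the 26 groups, in log2 CPM, the 8 genes had a Pearson r from 0.81 to 0.98 over their 28 pairs and a median of 0.91. Spearman rho ran lower, from 0.61 for Tmprss6 and Dgat2l6 to 0.98 for Plk5 and Krt9. These values are a description, since the groups share lines, ages and library sets. The genes were also chosen for a fall in the same line, and the groups that chose them are among the 26. The genes most like Ddit4l over these means were Ppp4r4 (r = 0.99), Vrk1 (0.99) and Zbtb18 (0.99), and those most like Odf4 were Upb1 (0.98), Scn4b (0.98) and Gpx6 (0.98). By Spearman rho the values for Odf4 were 0.85, 0.86 and 0.79. Mas1 was most like Scn4b (0.98), a sodium channel subunit and spiny neuron marker, Gabrd (0.98, rho 0.87) and Tmod1 (0.98). Tmprss6 was most like Ap1s1 (0.98), Gabrd (0.98) and Penk (0.98), the enkephalin precursor. Plk5 was nearest to Sbsn (0.98), Agfg2 (0.98) and Ankrd35 (0.97), and Krt9 to Ptprv (0.97), Ppp1r1b (0.96), a marker of spiny projection neurons, and Sbsn (0.96). Slc4a11 was nearest to Vwa7 (0.97), Myo5c (0.97) and Rspo1 (0.97), and Dgat2l6 to Sec14l3 (0.96), Abi3bp (0.95) and Wnt8b (0.95).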

How the data were processed

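Polyadenylated striatal RNA of 208 libraries in 26 groups of 8 was analysed. Per the submitters' processing notes reads were handled with CASAVA 1.8.2, with aligner, counting tool and build not given in the sources. The authors deposited expected counts, estimated reads per gene (32.7% of values above 0 are not whole), which were rounded for the models, and FPKM, which the authors scaled for depth and gene length. Each age was fitted with edgeR 4.0.16 (R 4.3.3), after filterByExpr (minimum count 10, total 15) and TMM scaling. The robust quasi-likelihood model had 1 term per group and 1 additive term for sex. Only the test of males against females used 1 term per group and sex together, and the trend a slope in place of group terms. Tests were two-sided, with Benjamini-Hochberg adjustment over all genes kept, called under 0.05. Age differences used all libraries and 17863 genes. The SE is the log2 difference over the square root of F. CPM use TMM-scaled libraries. DESeq2 1.42.0, limma-trend (limma 3.58.1) on log2(FPKM + 1) for genes of at least 1 FPKM in 8 libraries, RLE scaling, no filter, the replicate block, the L code of the library names, tissue scores, other references and libraries left out were alternatives. The fits were tested on simulated data. Figures used matplotlib 3.10.9 and permutations scipy 1.17.1.

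The 8 genes, the family and marker lists and the tests were chosen with earlier results of these data known. Named genes are the 8, up to 3 called genes of each family list with the largest change, the 3 genes of at least 1 CPM most like each of the 8, and the gene just outside the choice. Predicted genes were left out of the genes most alike.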

Additional observations from a re-analysis of the deposited data

Results flagged for a closer look

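In 14 of the 208 sets of 8 libraries tested, 1 library stood apart from the other 7, its gap to the nearest being over Dixon's critical share of the whole range, and chance gives such a gap in about 1 of 20. Of these, 4 were libraries with many mitochondrial counts at 2 months: male 5 of Q80 for Tmprss6 (6.57 CPM, nearest 3.29), Plk5 (32.0, nearest 23.9) and Ddit4l (51.9, nearest 34.5), and female 2 of Q111 for Ddit4l (40.4, nearest 26.97). The part of the mitochondrial share in these values was not tested. Also at 2 months, Slc4a11 was high in male 3 of Q80, the library that did not match its sex label (10.0 CPM, nearest 6.71), and in male 1 of Q111 (8.39, nearest 6.08). Mas1 was high in male 4 of Q140 (7.34, nearest 5.44) and low in female 1 of Q80 (4.45, nearest 5.74).

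At 6 months Plk5 was low in male 1 of Q92 (14.7 CPM, nearest 20.8) and Krt9 in male 2 of Q140 (12.3, nearest 16.2), while Ddit4l was high in male 3 of the wild types housed with Q20 (30.6, nearest 24.7) and Mas1 in male 3 of those housed with Q80 (10.9, nearest 7.97). At 10 months Plk5 was low in female 2 of Q80 (11.7 CPM, nearest 15.7) and Odf4 high in female 2 of the wild types (2.43, nearest 1.89).

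The difference of Q111 from Q20 was larger at 10 than at 6 months by the test of that difference for Odf4 (-1.03 on the log2 scale, from -1.05 to -1.02 over 3 alternatives) and Dgat2l6 (-0.999, from -1.07 to -0.99).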

How the results depend on the processing

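Over the alternatives, 1064 of 1086 called values of the 8 genes kept their call and direction, and 271 of 279 counts of genes stayed within 1.5 times. Counts that did not were those of Q140 against wild type at 2 months (3), which was 0 with tissue scores, 5 without the 7 libraries with many mitochondrial counts and 0 to 3 without 1 replicate, and of Q111 against wild type at 2 months (0), which was 3 without the 7 libraries and 1 without the 5 set apart. The count of genes whose Q92 difference changed between 6 and 10 months (0) was 3 with the replicate block. The block moved no other count of the 8 by over 1.5 times. Same-numbered Q175 and Q20 libraries had deviations that correlated at 0.091 to 0.309 over 8 pairs at 6 months, where 7 of 8 Q175 libraries correlated best with their own number, -0.281 to 0.118 at 2 months and -0.205 to 0.095 over 7 pairs at 10 months. As 1 of the 8 pairs at 6 months was under 0.1, and the labels name no shared litter or day, the numbers are not taken as a pairing.

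A change of sign occurred 30 times, each time for a difference that was not called with or without the alternative. Against wild type at 2 months it was, with the L code, 0.048 for Ddit4l and 0.023 for Tmprss6 in Q111, 0.029 for Mas1 in Q92, and -0.035 for Dgat2l6 and 0.14 for Tmprss6 in Q80. With tissue scores it was 0.0011 for Ddit4l and 0.0066 for Dgat2l6 in Q111, and 0.0030 for Mas1 in Q92. Without the libraries set apart it was -0.014 for Ddit4l and -0.18 for Tmprss6 in Q92, where Tmprss6 had -0.092 without the 7. Without the library that did not match its sex label it was -0.016 for Dgat2l6 and 0.0011 for Tmprss6 in Q80, and with only the 2 groups 0.0023 for Tmprss6. Leaving out 1 replicate gave -0.0040 to 0.18 for Ddit4l and -0.068 to 0.014 for Mas1 in Q92, -0.076 to 0.099 for Dgat2l6 and -0.26 to 0.16 for Tmprss6 in Q80, and -0.25 to 0.0032 for Tmprss6 in Q111. At later ages it was 0.0033 for the Q111 change of Krt9 with no filter, 0.018 for the sex difference of Krt9 and 0.013 for Krt9 in Q20 with the replicate block, 0.0017 for the latter and -0.0016 for Plk5 in Q20 of 6 months with limma-trend. In Q80 it was 0.00095 for Krt9 with tissue scores at 6 months, and at 10 months 0.017 for Mas1 with only 2 groups, 0.092 with the block and -0.23 for Tmprss6 with wild type as reference. The cause was not tested.

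Over all genes, calls in either direction ran across alternatives from 0 to 90 for Q140 (12) and 0 to 238 for Q111 (66) against wild type at 2 months. Against Q20 at 6 months they ran from 0 to 163 for Q80 (51), 100 to 1443 for Q92 (1056) and 1233 to 2608 for Q111 (2261). At 10 months they ran from 0 to 1172 for Q80 (21), 30 to 362 for Q92 (192), 1298 to 2691 for Q111 (2143) and 2341 to 4590 for Q140 (3870). Between Q111 and Q92 they ran from 353 to 1619 at 6 (1074) and 297 to 1204 at 10 months (668), between Q140 and Q111 from 3 to 21 at 10 months (14), and among wild types from 192 to 497 (237). Tmprss6, Odf4 and Dgat2l6 rest on under 100 counts in Q175 libraries, so small differences of these were not detectable.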
